A study of Homo sapiens with 12 samples.

Results

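RNA-seq of the shSigma knockdown in tumor spheres covered 6 of the 12 libraries of the study, chosen by their labels as the 3 tumor sphere libraries with the shSigma hairpin and the 3 with the shCtrl hairpin. All were made from DU145, a castration-resistant line of human prostate cancer cells. The shSigma cells carried a lentiviral knockdown hairpin, a short RNA that silences its target gene, and the shCtrl cells carried a control hairpin. Stable knockdown lines were made by infection and selection with puromycin. Tumor spheres are clusters that grew from cells seeded sparsely on non-adherent plates, in serum-free medium with insulin, FGF2 and EGF, a culture that favours stem-like cells. Each group had 3 independent replicates. Which of the study's knockdown hairpins the sequenced cells carried was not stated, and with 1 knockdown line against 1 control line the effect of the hairpin and other differences between the lines cannot be told apart.

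Cells that grow as spheres lose the contact with a culture dish and depend on contacts with each other, on the matrix they make and on factors they secrete or receive. Cell-cell junctions are built from cadherins, claudins and desmosomal proteins, attachment to matrix runs through integrins, and growth factors and cytokines signal to receptors that lead to the MAP kinase, SMAD, NF-kB and YAP pathways. The genes of these systems, and those of the responses to heat, misfolded protein, oxidants, low oxygen, interferon and DNA damage, were sorted into 18 lists.

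The 6 libraries held 16472722 to 19698970 counts each. Levels are CPM, counts scaled to library size, which are not corrected for gene length, so they are compared between libraries and not between genes. Replicates differed by more than sampling noise, at a chi-square of 2.905 to 13.01 per gene, and the biological coefficient of variation was 6.89%. The 10 genes with the most reads, mainly mitochondrial transcripts, took 5.27% to 6.25% of the counts in shCtrl and 7.44% to 8.59% in shSigma libraries, and their part in the results was not tested. The libraries are bulk RNA, in which fewer cells of a type and less RNA per cell cannot be told apart.

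Among epithelial markers the keratins KRT8, KRT18 and KRT19 had 314.7 to 437.9, 285.3 to 408.9 and 185.4 to 234.6 CPM over the 6 libraries, while KRT5 had at most 1 count. EPCAM and CDH1, epithelial markers as well, were lower in the shSigma libraries, with means of 625.1 and 741.1 CPM in shCtrl and 62.96 and 28.26 CPM in shSigma. KLK2 had at most 1 count in any library, and KLK3 and CHGA had 0, while ENO2, also used as a neuroendocrine marker, had 62.81 to 111.1 CPM. Among markers of other cell types, LUM was at 0, DCN, CDH5 and CD3E had at most 3 counts, and COL1A1 had the most reads of the fibroblast, endothelial and immune markers looked at, with means of 23.1 CPM in shCtrl and 12.2 CPM in shSigma. KDR, CD79A and COL1A2 had at most 42, 42 and 30 counts in any library. Their means were 2.065, 0.41 and 1.58 CPM in shCtrl and 0.6725, 1.81 and 0.0863 CPM in shSigma.

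A gene was tested where it passed edgeR's filter on low counts and was called well expressed at a mean of at least 5 CPM over the 6 libraries. Signed values are log2 fold changes of shSigma over shCtrl. SE is the absolute log2 fold change divided by the square root of the F statistic of the test named next. It is not a direct standard error, and it can understate counting error where a group has few counts. Genes are described as higher or lower where the adjusted p was under 0.05 and the absolute log2 fold change was over 1, where p-values came from the quasi-likelihood test of edgeR and were adjusted by the Benjamini-Hochberg method. Among 10904 well-expressed genes 435 were higher (3.99%) and 419 lower (3.84%), 7.83% in all (13.1% of all genes tested), which is the background for the counts below. At an adjusted p under 0.05 alone 61.1% of all 13774 genes tested and 63.8% of well-expressed genes differed, 32.2% higher and 31.6% lower, and the groups of libraries did not overlap for 69.4%. The shares among well-expressed genes are the background for counts below at an adjusted p alone and for groups that did not overlap. The median log2 fold change of all well-expressed genes was 0.0098 and the median of its absolute value 0.296.

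The 18 lists named 1232 genes, of which 1229 were in the table, 945 were tested and 765 were well expressed. Of the well-expressed list genes 89 were higher, 87 lower and 589 neither. The shares were uneven among the lists. Cytokines and chemokines (50%), growth factor ligands (46.3%), S100 proteins, serpins and other secreted proteins (44.2%), cell-cell adhesion (42.9%) and matrix (38.8%) had the highest shares past both thresholds, and heat shock proteins had the lowest at 5.77%. These are counts in lists written with earlier results of these data known, and no test of a list was run.

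**Figure D1:**
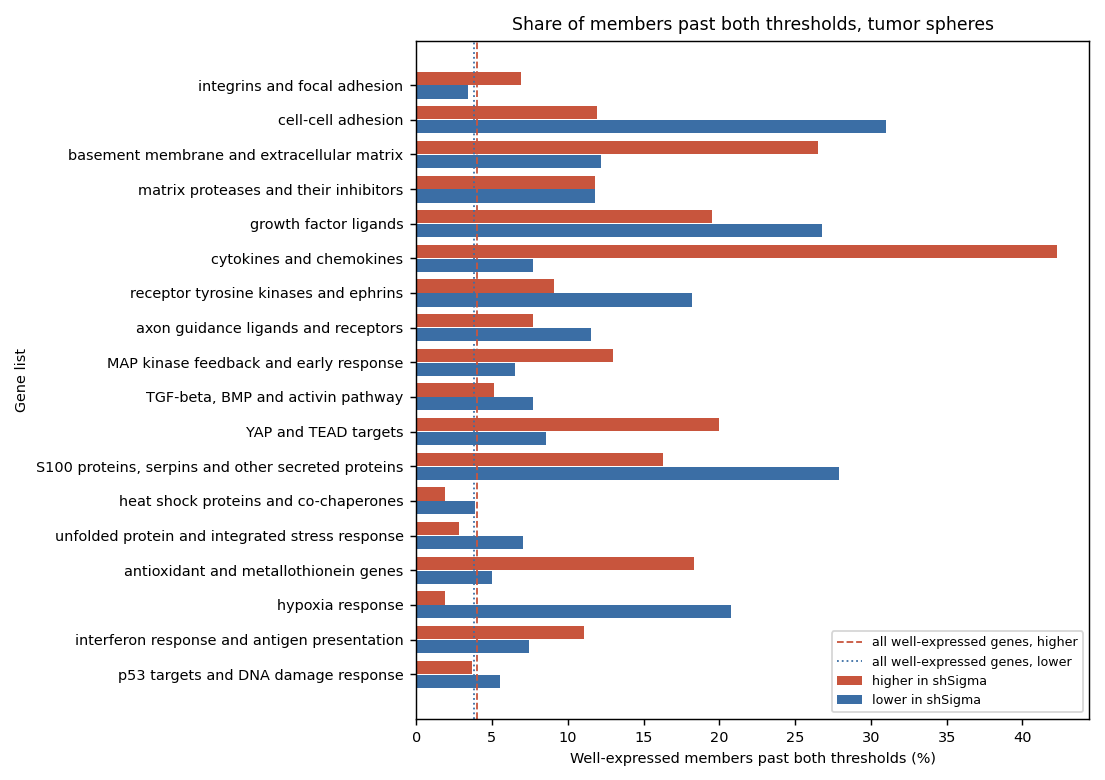
Percentage of the well-expressed members of each list that were higher (red) or lower (blue) past both thresholds, with vertical lines at the shares among all well-expressed genes, 3.99% higher and 3.84% lower. Cytokines and chemokines reached 42.3% higher, cell-cell adhesion 31.0% lower and hypoxia genes 20.8% lower.

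Epithelial cadherins, EPCAM and CEACAM genes were lower in the shSigma spheres, and several claudins and DSG3 were higher. Of 42 well-expressed members 13 were lower and 5 higher, and the median log2 fold change was -0.10. CDH1 (ENSG00000039068, chr16:68737292-68835537, GRCh38) is E-cadherin, the core of the epithelial adherens junction. It had 748, 687 and 789 CPM in shCtrl and 24.3, 30.8 and 29.7 CPM in shSigma. The groups were far apart, 26.2-fold, with no overlap (log2 fold change -4.71, SE 0.0951, adjusted p = 3.34e-11). CDH3, P-cadherin, was lower too (log2 fold change -3.60, SE 0.121, adjusted p = 1.44e-08), so that 2 of the 3 well-expressed cadherins were past both thresholds. The epithelial adhesion molecule EPCAM had 590.4, 672 and 613 CPM in shCtrl and 61.6, 62.8 and 64.5 CPM in shSigma, again without overlap (log2 fold change -3.31). MCAM had a log2 fold change of -2.81 and L1CAM one of -1.93, and both are adhesion molecules of the immunoglobulin family. The catenin CTNNA1, which links cadherins to actin and was the most-read member, had 620.0, 584 and 625 CPM in shCtrl and 526, 532 and 539.8 CPM in shSigma, a log2 fold change of -0.19.

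The claudins, which seal or open the tight junction, moved in opposite directions. Of 8 well-expressed claudins 7 had an adjusted p under 0.05 on the higher side and 1 on the lower. CLDN7 was the lower one, with 206, 209.8 and 212 CPM in shCtrl and 8.7, 9.27 and 10.1 CPM in shSigma, a difference of 22.3-fold (log2 fold change -4.48, SE 0.0693, adjusted p = 1.63e-12). CLDN2, which forms a pore for cations, had 8.25, 8.17 and 5.27 CPM in shCtrl and 194, 219 and 214 CPM in shSigma (log2 fold change 4.86, SE 0.131, adjusted p = 2.45e-09). The shSigma libraries were all far above the highest shCtrl library for CLDN2. CLDN11 (log2 fold change 3.06) and CLDN3 (1.30) were higher as well. CLDN1 and CLDN4 had log2 fold changes of 0.52 and 0.96, under the fold threshold. The 40 tested genes nearest to CLDN3 and to CLDN4 had a median log2 fold change of 0.59. Relative to this median CLDN3 was under the fold threshold. CLDN12 and CLDN15 had log2 fold changes of 0.49 and 0.69, and their 40 nearest tested genes had medians of 0.49 and 0.64.

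Among 9 well-expressed desmosomal genes 1 was higher and 2 lower. DSP, the plakin that ties desmosomes to keratin, had a log2 fold change of -1.49 and PKP2 one of -1.18, both lower, and PERP, a membrane protein of desmosomes counted apart, had -1.14. DSG3, a desmosomal cadherin of stratified epithelia, had 2, 2 and 3 counts in the shCtrl libraries and 543, 621 and 626 in the shSigma libraries, at least 189.3-fold higher. DSG2 (log2 fold change -0.42), JUP (0.16) and PKP3 (-0.15) did not pass both thresholds. CADM1, an adhesion molecule of epithelia and neurons, had 27.3, 28.3 and 25.4 CPM in shCtrl and 141, 164 and 150.0 CPM in shSigma, a 5.61-fold rise (log2 fold change 2.49, SE 0.0734, adjusted p = 2.18e-10).

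CEACAM5 and CEACAM6 were almost absent after knockdown. These are glycosylated cell surface adhesion molecules, and CEACAM5 is the carcinoembryonic antigen. CEACAM5 had 578, 645 and 651 counts in shCtrl and 1, 1 and 2 counts in shSigma libraries, at least 218.5-fold lower. CEACAM6 had 124, 138 and 125 CPM in shCtrl and 0.921, 0.867 and 0.644 CPM in shSigma (log2 fold change -7.30, SE 0.114, adjusted p = 1.63e-12). The genes are close copies, and how reads shared by both were counted was not stated. Their summed level was 164 ± 8.79 CPM in shCtrl and 0.882 ± 0.115 CPM in shSigma (mean ± SD, n = 3), so the sum fell as each of them did.

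Of 29 well-expressed integrin and focal adhesion genes 2 were higher and 1 lower, 10.3% against the 7.83% of all genes. At an adjusted p under 0.05 alone 16 were higher and 6 lower, and the median log2 fold change was 0.27. ITGA2, the collagen-binding α2 subunit, had 259, 245 and 228 CPM in shCtrl and 42.7, 52.8 and 49 CPM in shSigma, a 5.07-fold difference (log2 fold change -2.34, SE 0.0797, adjusted p = 9.02e-10). ITGB2, the β2 subunit best known from leukocytes, had 2.03, 1.29 and 1.91 CPM in shCtrl and 14, 12.8 and 12.3 CPM in shSigma (log2 fold change 2.90, SE 0.156, adjusted p = 2.80e-08). It stayed a low gene in all libraries, and ITGB2-AS1 on the opposite strand covers 4.15% of its exons. BCAR1, a docking protein of focal adhesions, was just past the fold threshold (log2 fold change 1.03, SE 0.123, adjusted p = 2.00e-05), and fell under it without shCtrl replicate 2 (0.94) or shSigma replicate 1 (0.96). The most-read subunit ITGB1 had a log2 fold change of 0.39 (adjusted p = 7.68e-05), and the 40 tested genes nearest to it had a median of 0.40. ITGA1, ITGB4, TLN1 and VCL had log2 fold changes of 0.61, 0.59, 0.72 and 0.60, and PTK2, the focal adhesion kinase, had -0.71.

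**Figure D2:**
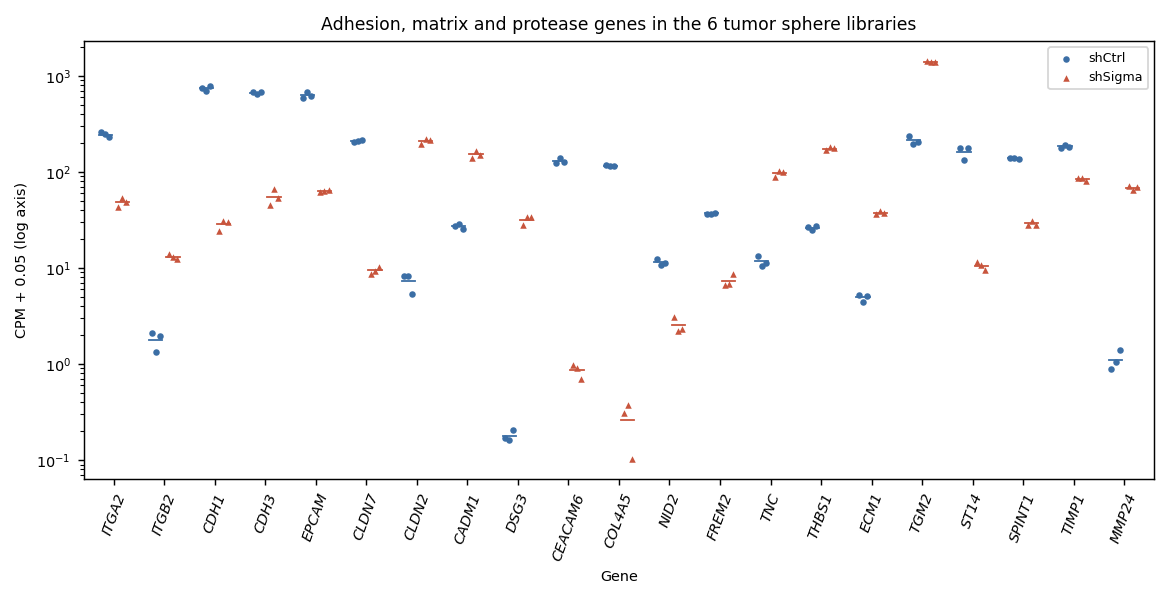
Levels of adhesion, matrix and protease genes in each library on a log axis of CPM + 0.05, with circles for shCtrl, triangles for shSigma and short lines for group means. The genes were picked from those past both thresholds. None overlaps between the groups, as held for 69.4% of all well-expressed genes. CDH1 had 687 to 789 CPM in shCtrl and 24.3 to 30.8 CPM in shSigma, and TGM2 had 196 to 237 CPM against 1375 to 1435 CPM.

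Matrix genes were more often higher than lower. Of 49 well-expressed basement membrane and extracellular matrix genes 13 were higher and 6 lower, with a median log2 fold change of 0.26. TNC, the glycoprotein tenascin-C, had 13.3, 10.5 and 11.2 CPM in shCtrl and 88.2, 101 and 100.01 CPM in shSigma (log2 fold change 3.05, SE 0.0948, adjusted p = 3.41e-10). THBS1, thrombospondin 1, had 26.7, 24.8 and 27 CPM in shCtrl and 168, 181 and 175 CPM in shSigma (log2 fold change 2.74, SE 0.0616, adjusted p = 2.62e-11). Both rose without overlap of the groups, with fitted folds of 8.26 and 6.67. TGM2, a transglutaminase that crosslinks matrix proteins, had 237, 196 and 205 CPM in shCtrl and 1435, 1375 and 1399.7 CPM in shSigma, one of the most-read genes of the list after knockdown (log2 fold change 2.72, SE 0.0737, adjusted p = 9.92e-11). ECM1 (log2 fold change 2.94), fibronectin FN1 (2.29), the basement membrane proteoglycans HSPG2 (2.00) and AGRN (1.5), and COL17A1 (2.58) were also higher.

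COL4A5, a chain of type IV collagen of basement membranes, had the lowest log2 fold change of the list. It had 117, 116 and 114 CPM in shCtrl and 0.256, 0.325 and 0.0537 CPM in shSigma, with 1949 to 2201 counts against 1 to 6 (log2 fold change -9.04, SE 0.158, adjusted p = 4.41e-12). Its relatives COL4A1 and COL4A2, which form the common type IV network, had log2 fold changes of 0.26 and 0.61, on the other side of 0 and under the fold threshold. Among 14 well-expressed collagens 6 were higher and 8 lower at an adjusted p under 0.05. COL8A2 (log2 fold change -2.62) and COL7A1 (-1.84), the anchoring fibril collagen, were lower. FREM2, a basement membrane protein of epithelia, had 36.7, 36.1 and 37.6 CPM in shCtrl and 6.6, 6.72 and 8.7 CPM in shSigma (log2 fold change -2.33, SE 0.106, adjusted p = 6.26e-09). The nidogens, which link laminin to collagen IV, had log2 fold changes of -1.73 for NID1 and -2.20 for NID2. RTRAF, which had a mean of 254 CPM, covers 30.7% of the exons of NID2 on the opposite strand, and use of strand in counting was not stated. Of 9 well-expressed laminin chains 6 were higher and 2 lower at an adjusted p under 0.05, and only LAMA1 (log2 fold change 1.54) passed both thresholds among these 9.

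Matrix proteases and their inhibitors were split evenly, with 4 higher and 4 lower of 34. ST14, the membrane serine protease matriptase, had 176, 132 and 175 CPM in shCtrl and 11.4, 10.6 and 9.39 CPM in shSigma (log2 fold change -3.94, SE 0.132, adjusted p = 1.30e-08). Its inhibitor SPINT1 had 139, 138 and 138 CPM in shCtrl and 28, 30.9 and 28 CPM in shSigma (log2 fold change -2.25, SE 0.0612, adjusted p = 9.92e-11). Protease and inhibitor were thus both lower, by 15.4-fold and 4.77-fold, and the related inhibitor SPINT2 had a log2 fold change of -0.88. TIMP1, an inhibitor of matrix metalloproteinases, fell from 184 ± 5.84 to 84 ± 3.11 CPM (mean ± SD, n = 3), a log2 fold change of -1.13, and SERPINE2, an inhibitor of thrombin and plasminogen activators, had -1.45. MMP24, a membrane-anchored metalloproteinase, had 0.837, 1.01 and 1.34 CPM in shCtrl and 70.4, 64.4 and 69.5 CPM in shSigma (log2 fold change 5.98, SE 0.124, adjusted p = 1.54e-11). The antisense gene MMP24OS covers 18.4% of its exons and was itself higher, at a log2 fold change of 1.76, so reads of the pair may not be separable. ADAM8 (log2 fold change 2.81), ADAMTS15 (1.74) and the lysosomal protease CTSD (1.62) were higher, and the urokinase gene PLAU and its receptor PLAUR had -0.78 and -0.46.

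Growth factor ligands and their binding proteins held 8 higher and 11 lower genes among 41. PTHLH, parathyroid hormone-related protein, had 45, 48.8 and 36.3 CPM in shCtrl and 1.43, 1.19 and 1.93 CPM in shSigma, a 28.4-fold difference (log2 fold change -4.83, SE 0.17, adjusted p = 1.97e-09). AREG, an EGF receptor ligand, had 444, 547 and 503 CPM in shCtrl and 98.4, 90.1 and 96.8 CPM in shSigma (log2 fold change -2.39, SE 0.0773, adjusted p = 6.03e-10). EREG, another ligand of this receptor, was lower at a log2 fold change of -1.22, while HBEGF and TGFA had 0.17 and 0.17 with adjusted p-values of 0.266 and 0.109. The medium of the spheres supplied EGF. STC1, a secreted glycoprotein, was lower (log2 fold change -2.36, SE 0.221, adjusted p = 1.43e-05), and its relative STC2 was higher (log2 fold change 1.17, SE 0.0563, adjusted p = 1.09e-08).

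IGFBP3, a carrier of insulin-like growth factors, had 172, 208 and 644 CPM in shCtrl and 5.93, 10.3 and 7.35 CPM in shSigma. The third shCtrl library was far above the other shCtrl libraries, and the groups did not overlap (log2 fold change -5.45, SE 0.813, adjusted p = 0.00455). Without that library the log2 fold change was -4.60 (adjusted p = 1.30e-06). Of 4 well-expressed IGF binding proteins 2 were lower, IGFBP3 and IGFBP2 (log2 fold change -1.85), and 2 were higher, IGFBP6 (1.75) and IGFBP4 (1.16). CSF1, the growth factor of macrophages, had 22.4, 14.7 and 14.5 CPM in shCtrl and 146, 159 and 158 CPM in shSigma (log2 fold change 3.17, SE 0.141, adjusted p = 9.51e-08). EDN1, the vasoconstrictor peptide endothelin 1, had 2.03, 1.62 and 1.91 CPM in shCtrl and 11.1, 11.8 and 12.6 CPM in shSigma (log2 fold change 2.67, SE 0.139, adjusted p = 2.00e-08). GAS6, a ligand of the receptor AXL, was higher too (log2 fold change 1.49, SE 0.107, adjusted p = 3.07e-07). The angiogenic factor VEGFA, the most-read member, had 351, 358 and 422 CPM in shCtrl and 387, 427 and 382 CPM in shSigma, in overlapping groups (log2 fold change 0.08, adjusted p = 0.372).

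Most cytokine genes were higher, 19 of 26 at an adjusted p under 0.05 against 4 lower. Of the 26 well-expressed cytokine, chemokine and NF-kB pathway genes 11 were higher and 2 lower, and the median log2 fold change was 0.81. IL6 had 1.32, 1.73 and 1.86 CPM in shCtrl and 10.6, 12.7 and 11.9 CPM in shSigma (log2 fold change 2.83, SE 0.154, adjusted p = 3.02e-08). IL32 had 6.88, 8.11 and 8.41 CPM in shCtrl and 54.4, 55.6 and 52.8 CPM in shSigma (log2 fold change 2.79, SE 0.0881, adjusted p = 3.71e-10). For both interleukins every shSigma library was above every shCtrl library. IL24 was higher at a log2 fold change of 4.02, with FCMR on the opposite strand covering 41.6% of its exons. The neutrophil-attracting chemokines CXCL1, CXCL2 and CXCL8 had log2 fold changes of 1.94, 1.40 and 1.91. Inhibitors of NF-kB, which this pathway itself induces, were also higher. TNFAIP3 had 3.95, 3.24 and 5.11 CPM in shCtrl and 32.4, 35 and 31.6 CPM in shSigma (log2 fold change 3.00, SE 0.131, adjusted p = 4.69e-09), and NFKBIA had 94.7, 114 and 114 CPM in shCtrl and 244, 241 and 227 CPM in shSigma (log2 fold change 1.14, SE 0.0716, adjusted p = 9.63e-08). The subunit RELB had a log2 fold change of 1.36, NFKB2 0.76 and NFKB1 0.36.

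PTGS2, the inducible cyclooxygenase that makes prostaglandins and is often raised together with cytokines, went the other way. It had 77.6, 73.8 and 49.2 CPM in shCtrl and 3.22, 2.87 and 3.54 CPM in shSigma, a 20.7-fold difference (log2 fold change -4.37, SE 0.204, adjusted p = 1.31e-07). The prostaglandin E synthase PTGES had a log2 fold change of 0.86, under the fold threshold, and the prostaglandin E receptor gene PTGER3 was among the 10 highest log2 fold changes of all well-expressed genes (log2 fold change 5.83, SE 0.279, adjusted p = 1.02e-08, and 6.44 without shCtrl replicate 1). The epithelial chemokine CCL28 was lower (log2 fold change -1.10).

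The promoters of cytokine list genes were searched on both strands for a form of the NF-kB motif, the letters GGG, NN and TTTCC in a row, in windows of 300 bases from RefSeq (GRCh38.p14, 250 before to 50 after the start). The motif was in 1.92% of all 27305 promoters and in 2.23% of those of well-expressed genes. It was in 6 of the 10 higher genes with a promoter window (IL6, IL32, CXCL1, CXCL2, TNFAIP3 and NFKBIA). It was in 4 of the 9 that passed neither direction and in 0 of the 2 lower genes. The list was written to hold NF-kB pathway genes, so its share above that of all promoters is not a result of the knockdown. The windows of TNFAIP3 (chr6:137867009-137867308, plus strand), CXCL2 (chr4:74099146-74099445, minus strand) and NFKBIA (chr14:35404700-35404999, minus strand) are shown to place the motif, in capitals, in genes named above. A match is a description of letters and not a measured site.
TNFAIP3: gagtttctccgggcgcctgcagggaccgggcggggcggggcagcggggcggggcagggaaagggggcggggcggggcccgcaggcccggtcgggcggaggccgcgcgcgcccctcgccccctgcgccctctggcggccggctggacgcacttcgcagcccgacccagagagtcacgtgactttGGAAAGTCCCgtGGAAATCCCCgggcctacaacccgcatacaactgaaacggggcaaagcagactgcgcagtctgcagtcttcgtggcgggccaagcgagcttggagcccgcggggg
CXCL2: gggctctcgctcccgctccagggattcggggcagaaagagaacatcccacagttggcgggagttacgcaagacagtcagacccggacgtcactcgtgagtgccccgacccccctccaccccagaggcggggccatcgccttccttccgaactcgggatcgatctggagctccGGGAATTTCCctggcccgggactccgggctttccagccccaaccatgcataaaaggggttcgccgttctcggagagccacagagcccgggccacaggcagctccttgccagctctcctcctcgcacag
NFKBIA: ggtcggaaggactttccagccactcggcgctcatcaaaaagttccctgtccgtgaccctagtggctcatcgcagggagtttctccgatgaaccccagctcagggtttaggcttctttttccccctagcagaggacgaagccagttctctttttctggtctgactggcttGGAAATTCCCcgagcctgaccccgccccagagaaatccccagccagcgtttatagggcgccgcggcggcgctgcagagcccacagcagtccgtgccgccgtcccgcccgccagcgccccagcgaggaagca

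Receptor tyrosine kinases and ephrins had 3 higher and 6 lower of 33 well-expressed members. IGF1R, the receptor of insulin-like growth factor 1, had 432, 363 and 402 CPM in shCtrl and 146, 168 and 164 CPM in shSigma (log2 fold change -1.32, SE 0.0745, adjusted p = 5.01e-08). MET, the receptor of hepatocyte growth factor, had 33.7, 30.6 and 32.4 CPM in shCtrl and 101, 99 and 109 CPM in shSigma (log2 fold change 1.67, SE 0.066, adjusted p = 2.07e-09). AXL had 153, 127 and 142 CPM in shCtrl and 361, 366 and 356 CPM in shSigma (log2 fold change 1.36, SE 0.0656, adjusted p = 1.09e-08). For these 3 receptors the groups did not overlap, with IGF1R lower and MET and AXL higher. IGF1R was at -0.96 relative to the median log2 fold change of its 40 nearest tested genes, under the fold threshold. ROR1 was higher at a log2 fold change of 1.67. FGFR2 (log2 fold change -2.00) and FGFR3 (-1.29) were lower, FGFR1 had 0.75 and FGFR4 -0.16, in a medium that contained FGF2. The EGF receptor EGFR had a log2 fold change of 0.45, ERBB2 -0.70 and ERBB3 -0.48, none past both thresholds.

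Axon guidance genes, which also steer epithelial and tumor cells, held 2 higher and 3 lower of 26. SEMA3C had 32.8, 29.9 and 31.5 CPM in shCtrl and 207, 230.3 and 225 CPM in shSigma (log2 fold change 2.81, SE 0.0648, adjusted p = 2.97e-11). SEMA3E, a semaphorin of the same class, had 40.4, 39.8 and 46.2 CPM in shCtrl and 3.22, 4.39 and 3.7 CPM in shSigma (log2 fold change -3.48, SE 0.118, adjusted p = 6.24e-10). The pair thus moved in opposite directions, by 7.02-fold up and 11.2-fold down, and their chromosome 7 neighbours had medians of 0.61 and 0.49 on the log2 scale. NTN4, a laminin-related netrin of basement membranes, had 35.8, 38.1 and 34.6 CPM in shCtrl and 1.74, 1.95 and 1.56 CPM in shSigma (log2 fold change -4.37, SE 0.114, adjusted p = 7.59e-11). ROBO1, a receptor of SLIT proteins, had 68.7, 59.2 and 67.6 CPM in shCtrl and 0.307, 0.108 and 0.0537 CPM in shSigma, where the fitted log2 fold change went from -8.62 to -9.53 without shSigma replicate 1. The plexins, which are semaphorin receptors, had no member past both thresholds among 6.

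Feedback and early response genes of the MAP kinase pathway went in both directions. Of 46 well-expressed members 6 were higher and 3 lower, with a median log2 fold change of 0.24. The phosphatases DUSP5 and DUSP6, which inactivate ERK, moved apart. DUSP5 had 31.6, 32.4 and 33.1 CPM in shCtrl and 78.1, 75.3 and 77.4 CPM in shSigma (log2 fold change 1.25, SE 0.0606, adjusted p = 1.13e-08), and DUSP6 had 60.6, 57.3 and 44.5 CPM in shCtrl and 24.3, 29.8 and 26.3 CPM in shSigma (log2 fold change -1.01, SE 0.121, adjusted p = 4.79e-05). DUSP6 fell under the fold threshold without shCtrl replicate 1 (-0.92) or 2 (-0.97) or shSigma replicate 1 (-0.94) or 3 (-0.9984). Relative to the 40 nearest tested genes DUSP5 was at 0.80 and DUSP6 at -0.97 on the log2 scale, both under the fold threshold. SPRY2, an inhibitor of receptor signaling, was higher (log2 fold change 1.57, SE 0.0881, adjusted p = 3.76e-08), and SPRY4 had a log2 fold change of -0.67. ETV1 was higher at a log2 fold change of 1.32 while the related factors ETV4 and ETV5 had -0.71 and -0.36. Among immediate early genes JUNB was higher (log2 fold change 1.08), FOS had 0.16 and EGR1 -0.66. BHLHE40, a transcriptional repressor that also responds to low oxygen, had 193, 177 and 172 CPM in shCtrl and 42.6, 53 and 45.1 CPM in shSigma (log2 fold change -1.95, SE 0.0818, adjusted p = 5.04e-09).

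In the TGF-beta, BMP and activin pathway 2 of 39 well-expressed genes were higher and 3 lower, all of them ligands or extracellular proteins. GDF15 had 25.9, 17.1 and 14.8 CPM in shCtrl and 1.59, 1.14 and 1.34 CPM in shSigma (log2 fold change -3.81, SE 0.265, adjusted p = 1.73e-06). BMP7 had 0.658, 0.727 and 1.24 CPM in shCtrl and 10.7, 13 and 12.7 CPM in shSigma (log2 fold change 3.76, SE 0.196, adjusted p = 2.01e-08). TGFB2 was higher at a log2 fold change of 1.85, with 2.57, 2.69 and 3.25 CPM in shCtrl and 8.9, 12.5 and 9.5 CPM in shSigma. The extracellular proteins LTBP1, which holds latent TGF-beta in the matrix, and FSTL1 were lower, at log2 fold changes of -1.84 and -2.10. None of the 6 well-expressed SMADs passed both thresholds, and the receptors TGFBR1 and TGFBR2 had log2 fold changes of 0.18 and 0.11.

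Targets of YAP and TEAD, which respond to cell shape and contact, held 7 higher and 3 lower of 35. ANKRD1 had 10.5, 11.1 and 10.4 CPM in shCtrl and 79, 87.6 and 77.5 CPM in shSigma (log2 fold change 2.93, SE 0.0797, adjusted p = 9.92e-11). CCN2 had 7.65, 6.49 and 8.21 CPM in shCtrl and 29.2, 37.9 and 34 CPM in shSigma (log2 fold change 2.17, SE 0.122, adjusted p = 3.75e-08). AMOTL2 had 53, 44.7 and 56.2 CPM in shCtrl and 229.8, 219 and 206 CPM in shSigma (log2 fold change 2.09, SE 0.081, adjusted p = 2.82e-09). All 3 are classical targets, and each was above every shCtrl value in every shSigma library. CCN1 was higher at a log2 fold change of 1.19. The transducers YAP1 and WWTR1 had log2 fold changes of 0.18 and 0.09, and TEAD1 and TEAD4 had 0.70 and 0.65. F3, tissue factor, was lower at a log2 fold change of -1.27 and GADD45A at -1.16, and the 40 tested genes nearest to each on chromosome 1 had median log2 fold changes of -0.46 and -0.47. Relative to these medians F3 was at -0.82 and GADD45A at -0.69, under the fold threshold. The remaining lower member, IGFBP3, had a log2 fold change of -5.45, and -5.44 relative to its 40 nearest tested genes.

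The TEAD motif GGAATG was searched for on both strands in the same promoter windows. It was in 14% of all promoters and in 10.4% of those of well-expressed genes. It was in 3 of the 6 higher YAP and TEAD genes with a promoter window (CCN2, ANKRD1 and TGFB2). It was in 4 of the 18 that passed neither direction and in 0 of the 2 lower genes with a window. This list was written to hold YAP and TEAD targets, so a share above that of all promoters is not a result of the knockdown. The numbers of genes by direction are small, and no difference between them was tested. Here too a match describes letters and is not a measured site. The windows of CCN2 (chr6:131951323-131951622, minus strand), with 3 matches, and of ANKRD1 (chr10:90921038-90921337, minus strand), with 2 matches, are shown because these genes had the highest log2 fold changes of the list, with the motif in capitals.
CCN2: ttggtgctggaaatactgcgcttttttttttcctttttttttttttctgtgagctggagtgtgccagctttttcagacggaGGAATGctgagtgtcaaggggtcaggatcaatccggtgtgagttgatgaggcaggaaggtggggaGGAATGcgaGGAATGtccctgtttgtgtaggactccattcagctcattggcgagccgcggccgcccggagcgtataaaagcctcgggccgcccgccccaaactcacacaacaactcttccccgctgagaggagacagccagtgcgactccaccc
ANKRD1: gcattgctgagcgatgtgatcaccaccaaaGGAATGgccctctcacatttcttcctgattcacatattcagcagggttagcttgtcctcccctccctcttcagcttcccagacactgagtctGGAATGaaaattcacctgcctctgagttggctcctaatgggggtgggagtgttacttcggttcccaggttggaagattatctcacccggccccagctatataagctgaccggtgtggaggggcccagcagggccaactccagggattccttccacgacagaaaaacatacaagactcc

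**Figure D3:**
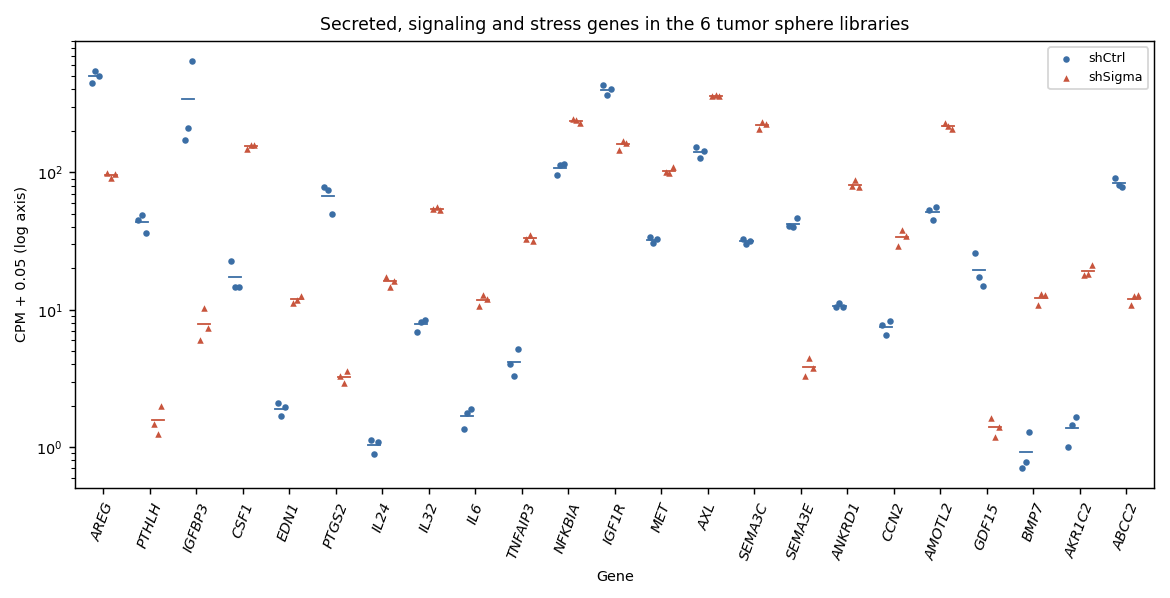
Levels of secreted, signaling and stress genes in each library on a log axis of CPM + 0.05, with circles for shCtrl, triangles for shSigma and short lines for group means. The genes were picked from those past both thresholds. The groups are apart for every gene shown, as for 69.4% of all well-expressed genes, and IGFBP3 has the widest shCtrl spread, from 172 to 644 CPM.

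Among S100 proteins, serpins and other secreted proteins 7 were higher and 12 lower of 43. NTS, the peptide neurotensin, had 413, 545 and 368 counts in shCtrl and 4, 1 and 1 counts in shSigma libraries (log2 fold change -7.78, SE 0.355, adjusted p = 6.05e-08), and without shSigma replicate 1 the log2 fold change was -8.66. WFDC2, a secreted protease inhibitor-like protein of epithelia, had 61, 72.2 and 75.7 CPM in shCtrl and 8.85, 7.59 and 8.37 CPM in shSigma (log2 fold change -3.07, SE 0.103, adjusted p = 5.98e-10). SERPINB5, the epithelial serpin maspin, had 16.4, 17 and 16.7 CPM in shCtrl and 1.69, 2.22 and 2.25 CPM in shSigma (log2 fold change -3.02, SE 0.13, adjusted p = 4.01e-09). SLPI was lower as well, at a log2 fold change of -1.6. Of 8 well-expressed S100 genes, which code for small calcium-binding proteins, 6 were lower and 1 higher at an adjusted p under 0.05, with log2 fold changes of -2.69 for S100A14, -2.09 for S100A2 and 1.02 for S100A4. Without shSigma replicate 1 S100A14 had -3.30.

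Complement genes, named after their values were seen, went in both directions. C3, the central complement protein, had 1.73, 1.01 and 1.29 CPM in shCtrl and 43.5, 44.8 and 54.1 CPM in shSigma (log2 fold change 5.14, SE 0.158, adjusted p = 3.15e-10). C1S and C1R, the proteases of the classical pathway, had log2 fold changes of 1.25 and 1.03, and CLU, which inhibits the terminal complex, had 1.04. The C1 inhibitor SERPING1 was lower at a log2 fold change of -2.47, and CD55, a surface inhibitor of complement, at -1.06. BCHE, butyrylcholinesterase, had 9, 2 and 9 counts in shCtrl and 9482, 8633 and 8988 counts in shSigma libraries. PSAP, the precursor of lysosomal saposins, had 2249, 2156 and 2339 CPM in shCtrl and 4109, 4124 and 4179 CPM in shSigma, a log2 fold change of 0.88 under the fold threshold, and GRN, progranulin, was just past it (log2 fold change 1.04) and fell under it without shCtrl replicate 2 (0.90) and relative to its 40 nearest tested genes (0.94).

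Heat shock genes had the lowest share past both thresholds of the 18 lists. Of 52 well-expressed members 1 was higher and 2 lower, 5.77% against 7.83% of all genes, and the median absolute log2 fold change was 0.24. HSP90AB1, the constitutive cytosolic HSP90, had 2737, 2865 and 2721 CPM in shCtrl and 2592, 2537 and 2646 CPM in shSigma, and the groups did not overlap but the difference missed the threshold (log2 fold change -0.10, SE 0.0589, adjusted p = 0.169). HSPH1, a nucleotide exchange factor of HSP70, had 36.1, 34.8 and 27 CPM in shCtrl and 76.9, 83.1 and 79.3 CPM in shSigma (log2 fold change 1.29, SE 0.0969, adjusted p = 6.85e-07). The co-chaperone DNAJC12 had 192, 225 and 199.7 CPM in shCtrl and 25.9, 24.5 and 26.3 CPM in shSigma (log2 fold change -3.01, SE 0.0735, adjusted p = 4.22e-11), and DNAJA4 was lower at a log2 fold change of -1.70. Of the 8 subunits of the CCT chaperonin, which folds actin and tubulin, 5 were lower and 1 higher at an adjusted p under 0.05. None passed the fold threshold, and 63.8% of all well-expressed genes had an adjusted p under 0.05.

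The unfolded protein and integrated stress responses react to misfolded protein in the endoplasmic reticulum and to other stresses that slow translation. Of 71 well-expressed members 2 were higher and 5 lower, 9.86%. At an adjusted p under 0.05 alone 25 were higher and 25 lower, 70.4% against 63.8% of all well-expressed genes. Of the chaperones of the endoplasmic reticulum HSPA5, also called BiP, HSP90B1 and CALR had log2 fold changes of 0.27, 0.27 and 0.31, none past both thresholds. All 4 protein disulfide isomerases were higher at an adjusted p under 0.05, between log2 fold changes of 0.14 for PDIA3 and 0.87 for PDIA4, and none passed both thresholds. The sensors had log2 fold changes of 0.00434 for ERN1, 0.11 for EIF2AK3 and 0.74 for ATF6, and the effectors -0.18 for ATF4, -0.25 for DDIT3 and -0.12 for XBP1. ERO1A, the oxidase that recharges disulfide isomerases, had 396, 403 and 585 CPM in shCtrl and 177, 187 and 195 CPM in shSigma (log2 fold change -1.31, SE 0.137, adjusted p = 3.01e-05). WARS1, a tRNA synthetase, was lower at a log2 fold change of -1.04, and CTH, an enzyme of cysteine synthesis, at -1.17. NUPR1, a stress-induced chromatin protein, had 4.96, 5.48 and 4.8 CPM in shCtrl and 21.6, 21.5 and 21.3 CPM in shSigma (log2 fold change 2.08, SE 0.0987, adjusted p = 9.76e-09). The genes past both thresholds in this list went from 7 to 3 when each value was taken relative to the median of its 40 nearest neighbours, with ERO1A at -0.86, CTH at -0.71 and WARS1 at -0.97.

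Antioxidant and metallothionein genes held 11 higher and 3 lower of 60. All 4 well-expressed aldo-keto reductases, which reduce carbonyl compounds and steroids, were higher. AKR1C2 had 0.957, 1.4 and 1.6 CPM in shCtrl and 18, 18.1 and 21.3 CPM in shSigma (log2 fold change 3.84, SE 0.162, adjusted p = 3.65e-09), and AKR1C1 had 0.538, 0.951 and 0.981 CPM in shCtrl and 10.5, 9.43 and 10.8 CPM in shSigma (log2 fold change 3.61, SE 0.186, adjusted p = 1.90e-08). The coding sequences of both are nearly identical, and their sum was 2.14 ± 0.572 CPM in shCtrl and 29.4 ± 2.42 CPM in shSigma. AKR1C3 had a log2 fold change of 1.65 and AKR1B1 1.38. Of the zinc-binding metallothioneins MT2A had 59.3, 44.5 and 66.9 CPM in shCtrl and 172, 195 and 173 CPM in shSigma (log2 fold change 1.66, SE 0.128, adjusted p = 3.68e-06), and MT1E was higher at a log2 fold change of 1.59. HMOX1, heme oxygenase, was higher at a log2 fold change of 1.29 and the ferritin light chain FTL at 1.07. Other genes known from the NRF2 response had smaller values, with log2 fold changes of 0.23 for NQO1, 0.25 for TXNRD1 and -0.64 for GCLM, while GCLC had 1.06.

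The export pumps ABCC2 and ABCC3, which carry glutathione and glucuronide conjugates, moved in opposite directions. ABCC2 had 91.3, 80.1 and 78.7 CPM in shCtrl and 10.8, 12.5 and 12.7 CPM in shSigma (log2 fold change -2.80, SE 0.0899, adjusted p = 4.21e-10), and ABCC3 had 186, 162 and 161 CPM in shCtrl and 503, 575 and 536 CPM in shSigma (log2 fold change 1.66, SE 0.0718, adjusted p = 4.12e-09). PRDX1, a peroxiredoxin that removes peroxides, had 1315, 1493 and 1369 CPM in shCtrl and 719, 653 and 684 CPM in shSigma (log2 fold change -1.02, SE 0.065, adjusted p = 1.10e-07), and MMACHC covers 29.8% of its exons on the opposite strand. GSTM1 was lower at a log2 fold change of -1.24, in a family of similar genes where GSTM2 overlaps 22.3% of its exons. Relative to the median of the 40 nearest tested genes PRDX1 had a log2 fold change of -0.81 and GSTM1 one of -0.75, under the fold threshold, as PRDX1 also was without shCtrl replicate 2 (-0.97) or shSigma replicate 2 (-0.99). Of 11 well-expressed glutathione transferases 6 were lower and 1 higher at an adjusted p under 0.05, which 63.8% of all well-expressed genes passed.

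Hypoxia genes were more often lower than higher, 27 against 14 of 53 at an adjusted p under 0.05. Of the 53 well-expressed members 11 were lower and 1 higher, 22.6% in all, and the median log2 fold change was -0.21. ANGPTL4, a secreted inhibitor of lipoprotein lipase, had 27.7, 23.7 and 37.7 CPM in shCtrl and 8.13, 6.67 and 6.82 CPM in shSigma (log2 fold change -2.04, SE 0.178, adjusted p = 8.18e-06). ADM, the peptide adrenomedullin, had 36.8, 33.3 and 27.8 CPM in shCtrl and 10.7, 9.54 and 9.99 CPM in shSigma (log2 fold change -1.69, SE 0.113, adjusted p = 1.60e-07). NDRG1 (log2 fold change -1.38), the glycolytic genes HK2 (-1.24) and PFKFB4 (-1.35), and EPAS1 (-1.19), which codes for HIF-2α, were lower, and HIF1A had -0.42. LDHA had a log2 fold change of -0.86 and PDK1 -0.68, under the fold threshold, while ENO1 and ALDOA had 0.08 and -0.03. The third shCtrl library was the highest of its group for 38 of the 53 members (71.7%), where it was the highest for 27.4% of all well-expressed genes. Without this library the list again had 12 genes past both thresholds, and its part in the size of the differences was not tested. Relative to the median of the 40 nearest tested genes 8 members of the list were past both thresholds.

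Interferon and antigen presentation genes held 6 higher and 4 lower of 54, and members of related families went apart. IFIT2 had 7.65, 7.89 and 8.26 CPM in shCtrl and 31.7, 29.5 and 30.9 CPM in shSigma (log2 fold change 1.95, SE 0.0863, adjusted p = 5.04e-09), and IFIT3 was higher at a log2 fold change of 1.91. OAS1, a sensor of double-stranded RNA, had 12.7, 12.4 and 15.4 CPM in shCtrl and 1.84, 2.82 and 2.15 CPM in shSigma (log2 fold change -2.58, SE 0.163, adjusted p = 1.02e-07), and OAS3 was lower at a log2 fold change of -1.12. The antiviral membrane proteins IFITM2 and IFITM3 moved in opposite directions, with log2 fold changes of -3.00 and 2.97. They are close copies between which reads may be split, and their sum went from 70.7 ± 6.96 CPM to 55.3 ± 2.09 CPM (mean ± SD, n = 3). STING1, the adaptor of the cytosolic DNA response at the endoplasmic reticulum, had 18.5, 15.8 and 18.8 CPM in shCtrl and 57.7, 55.6 and 51.6 CPM in shSigma (log2 fold change 1.63, SE 0.0853, adjusted p = 2.06e-08). B2M, the light chain of class I antigen-presenting molecules, had a log2 fold change of -0.42.

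Targets of p53 and DNA damage genes had 2 higher and 3 lower of 54, 9.26%. GADD45A and GADD45B, related stress proteins, were lower at a log2 fold change of -1.16 and higher at 1.49. Relative to its 40 nearest tested genes GADD45A was at -0.69, under the fold threshold. The other lower members were GDF15 (log2 fold change -3.81) and PERP (-1.14), both described above. BCL2L1, which protects from apoptosis, had 70.6, 63.7 and 67.7 CPM in shCtrl and 155, 148 and 154 CPM in shSigma (log2 fold change 1.18, SE 0.0569, adjusted p = 1.10e-08). MCL1, of the same family and the most-read member, had a log2 fold change of -0.19 (adjusted p = 0.0276). CDKN1A had a log2 fold change of -0.84 and MDM2 -0.56, both under the fold threshold.

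Outside the lists, the genes with the largest differences were nearly absent in one group. TRO, an adhesion-related protein, had 354, 354 and 417 counts in shCtrl and 0, 1 and 0 in shSigma libraries, at least 131.0-fold lower. GRHL2, a transcription factor of epithelial cells, had 621, 652 and 670 counts against 1 count in each shSigma library, at least 226.8-fold lower. PCDH10, a protocadherin, was at least 67.26-fold lower. PLN, phospholamban, a regulator of the calcium pump of the endoplasmic reticulum in muscle, had 135, 142 and 145 CPM in shCtrl and 0.409, 0.217 and 0.805 CPM in shSigma (log2 fold change -8.19, SE 0.157, adjusted p = 1.27e-11). On the higher side, MSLN, the surface protein mesothelin, had 0.658, 0.28 and 0.361 CPM in shCtrl and 13.8, 13.3 and 9.88 CPM in shSigma (log2 fold change 4.83, SE 0.25, adjusted p = 1.95e-08), and SCARA5, a ferritin receptor, had a log2 fold change of 4.85. NMRAL2P, at a log2 fold change of 5.79, is a pseudogene, and its counts may hold reads of related genes.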

How the data were processed

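RNA was sequenced from 3 shSigma and 3 shCtrl tumor sphere samples. Directional libraries were prepared by the authors with 800 ng of RNA and sequenced for 75 nt at one end, and the submitters' processing notes name STAR 2.6.1c, DESeq and GRCh38.p12. The authors deposited raw read counts per Ensembl gene. The annotation, the strand setting and the treatment of multiply aligned reads are not given in the sources used here. Of 28747 identifiers 26153 had a symbol in GENCODE release 44, whose coordinates (GRCh38) are given.

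From the deposited counts CPM, fold changes and p-values were computed with edgeR 4.0.16 (TMM, filterByExpr at a minimum count of 10, robust quasi-likelihood test, two-sided, prior count 0.125) and limma 3.58.1 in R 4.3.3, fitted on the 6 libraries and adjusted by the Benjamini-Hochberg method over all 13774 genes tested. A bound against a group with at most 3 counts per library was computed against 3 counts per library, and it covers counting error only. Library depth was 16472722 to 19698970 counts. The fits were checked on simulated counts. Alternatives were upper-quartile scaling, DESeq2 (1.42.0), edgeR with DESeq2 size factors, other filters, a stricter adjusted p, the replicate block, each library left out and subtraction of the median of the 40 nearest tested genes. Same-numbered libraries did not deviate together, so replicate numbers were not used as pairs.

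The gene lists and members were chosen with earlier results of these data known. Named were the most-read member and up to 4 highest and 4 lowest members past both thresholds of each list, and the 10 highest and 10 lowest of all well-expressed genes. Other list members were named after their values were seen. SOD2, PLA2G16 and HSPB11 were not analysed here, and the values of the targeted gene and a few others are not reported here. Overlaps of exons were counted with bedtools 2.31.1, and plots were made in matplotlib 3.10.9 from pandas 2.3.3 under Python 3.11.15.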

Additional observations from a re-analysis of the deposited data

How the results depend on the processing

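The counts of 435 higher and 419 lower well-expressed genes were 435 and 419 with DESeq2, 422 and 431 with upper-quartile scaling, 423 and 400 with at least 10 counts in every library, and 392 to 489 and 409 to 437 with 1 library left out. The replicate block gave 438 and 415, with 8168 genes in place of 8414 at an adjusted p under 0.05, and it changed no call of the 138 named genes. Same-numbered libraries correlated at 0.0591, -0.00206 and -0.115 in their deviations, and the other pairs at -0.163 to 0.186. No shared deviation by number was seen, but whether the replicates were grown or prepared in pairs is not stated and cannot be told from these values. Taking each value relative to the median of its 40 nearest neighbours gave 380 and 389 and moved the unfolded protein and integrated stress response list from 7 genes to 3; the cause was not tested. In that setting 12 of the 138 named genes were no longer past both thresholds (GRN, GADD45A, CTH, PRDX1, F3, GSTM1, DUSP5, DUSP6, WARS1, IGF1R, SEMA6C and ERO1A). List members named after their values were seen, such as CLDN3, are not in this count. The sign changed for CTNNA1 (0.016), ENO1 (-0.0003973) and ITGB1 (-0.0137), none of which passed the fold threshold. ADAM9, not called, lay between -0.05949 and 0.02551 with 1 library left out and changed sign without shCtrl replicate 1 or shSigma replicate 2 (0.01765). With 1 library left out, log2 fold changes fell under the fold threshold for GRN without shCtrl replicate 2 (0.90), BCAR1 without shCtrl replicate 2 (0.94) or shSigma replicate 1 (0.96), PRDX1 without shCtrl replicate 2 (-0.97) or shSigma replicate 2 (-0.99), and TXNIP without shCtrl replicate 3 (-0.99). The same held for SEMA6C without shCtrl replicate 3 (0.9997), shSigma replicate 1 (0.98) or shSigma replicate 2 (0.95), and for DUSP6 without any library but shCtrl replicate 3 and shSigma replicate 2 (-0.92 to -0.9984). Without shSigma replicate 2 the log2 fold changes of the nearly absent genes TRO, ZC4H2, PCDH10 and TKTL1 went to -11.58, -10.54, -10.62 and -10.43, and they rest on few counts. Depth limits genes with few counts to bounds.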
